A study of Mus musculus with 2 samples.

Results

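Immature non-dividing neutrophils were described in spleen cell suspensions of 1 wild-type mouse and 1 mouse with sickle cell disease (SCD). Cells were chosen by their own transcripts. They had at least 1% of their unique molecular identifiers (UMIs, each a counted transcript molecule) from S100a8 and S100a9 and at least 5% from the granule genes Camp, Ngp and Ltf. They had at most 4 UMIs of the division genes Top2a, Mki67, Ube2c, Birc5, Cenpf, Nusap1, Prc1 and Spc25, and under 0.5% from Elane, Mpo, Prtn3 and Ctsg, the azurophil granule genes of earlier precursors. Cells were kept when they had 500 to 5000 detected genes and when mitochondrial genes took under 15% and ribosomal genes under 30% of their UMIs. Of 20060 such cells, 3174 met the rule. The wild-type library held 397 of them among 9424 kept cells and the SCD library 2777 among 10636. High Camp, Ngp, Ltf, S100a8 and S100a9, low division genes and low azurophil genes are therefore properties of the selection and not findings.

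Droplet-based single-cell RNA sequencing had been run on each suspension after magnetic bead depletion of other cells, intended to enrich dendritic cells (DCs), from mice aged 12 to 16 weeks. The wild-type mouse was a non-sickling control, homozygous for Hbatm1Paz, heterozygous for Hbbtm1Tow and hemizygous for the human sickle globin transgene Tg(HBA-HBBs)41Paz. The SCD mouse was homozygous for all of them. By the labels both mice thus had the Hbatm1Paz allele of the mouse alpha globin locus on both chromosomes and carried the sickle transgene, and neither was treated. UMIs assigned to the mouse alpha globin gene Hba-a1 were counted in both libraries all the same, with values given below. The study describes the Berkeley line as one of mixed genetic background. Each group was 1 animal, so no difference has a replicate check, no test was possible, and genotype, animal and library cannot be told apart. Intervals are exact 95% intervals and cover counting error only.

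Neutrophils arise from dividing promyelocytes and myelocytes, which fill successive waves of granules. Azurophil granule genes are transcribed earliest, specific granule genes such as Camp, Ngp, Ltf and Lcn2 at the myelocyte and metamyelocyte steps, and gelatinase granule and receptor genes such as Mmp9 and Cxcr2 as division has ended. Most of this takes place in the bone marrow, and the spleen of mice can also host it. C/EBP epsilon, the product of Cebpe, is the transcription factor required for specific granule genes.

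The granule genes of the rule lie on the same chromosome. Camp, the cathelicidin antimicrobial peptide, is at chr9:109847379-109849617 (minus strand), Ngp, neutrophilic granule protein, at chr9:110419747-110423012 (plus strand), and Ltf, the iron-binding lactoferrin, at chr9:111019271-111042767 (plus strand) on GRCm38 (GENCODE annotation). Camp and Ltf are 1.17 Mb apart with Ngp between them. Lcn2, the siderophore-binding lipocalin 2, is at chr2:32384633-32388252 (minus strand). The promoters of Camp, Ngp and Ltf are shown because these genes helped to define the cells. Each sequence is from RefSeq, GRCm38.p6, on the gene's own strand, and starts 250 bases before the RefSeq start. It ends before the earliest start that RefSeq or GENCODE annotates there, so the lengths differ. Capitals mark the letters TTGCNNAA or its reverse complement TTNNGCAA, a C/EBP-type motif, searched on both strands.
Camp, chr9:109849618-109849706: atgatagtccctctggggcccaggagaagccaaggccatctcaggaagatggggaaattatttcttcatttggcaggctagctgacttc
Ngp, chr9:110419558-110419746: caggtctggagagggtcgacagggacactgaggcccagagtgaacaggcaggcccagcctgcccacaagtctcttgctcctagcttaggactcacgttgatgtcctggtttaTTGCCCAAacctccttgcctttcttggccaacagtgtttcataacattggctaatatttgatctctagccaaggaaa
Ltf, chr9:111019042-111019270: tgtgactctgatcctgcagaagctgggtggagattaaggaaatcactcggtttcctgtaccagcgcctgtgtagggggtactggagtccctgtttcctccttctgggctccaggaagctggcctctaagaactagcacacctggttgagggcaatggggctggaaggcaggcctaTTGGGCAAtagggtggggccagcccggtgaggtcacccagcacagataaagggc

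The motif letters start 138 bases before the RefSeq start in Ngp and 75 in Ltf. For each promoter all 250 bases before the RefSeq start were searched, also where a shorter stretch is printed. No match was in those before Camp, which says only that these letters are absent there. Of 32851 promoters in the RefSeq table, 9.56% held the motif in these bases. Among the 13 genes of a specific granule list, 11 had a promoter in the table and 2 held the motif, Lcn2 and Slpi. The PU.1-type letters GAGGAAGT (reverse complement ACTTCCTC) were in 2.44% of all promoters, in none of those of Camp, Ngp and Ltf, and in 1 of the 11, that of Olfm4. A match is a description of letters and not a binding site.

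The cells bore the markers of their name. Besides the selecting genes, Lcn2 took a median of 1.66% of a cell's UMIs in the wild-type library and 1.56% in the SCD library, and had UMIs in 100% of the cells of both. Orm1, an acute-phase alpha-1-acid glycoprotein, was sparse, with UMIs in 51.6% (wild-type) and 50.1% (SCD) of the cells. In kept cells with under 1% S100a8 and S100a9 UMIs, which are not neutrophils by the rule, Orm1 was found in 0.187% and 0.965%, at median depths of 8314 and 10497 UMIs per cell. Ly6g, the surface antigen that defines mouse neutrophils, had UMIs in 98.2% and 99.0% of the cells, against 0.999% and 9.08% of those other cells. Of a list of 12 neutrophil-defining markers, 5 are selecting genes, and the other 7, Ly6g, Csf3r, Mmp8, Cxcr2, Itgam, Lcn2 and Orm1, were all expressed.

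The wild-type cells held 4364914 UMIs in all, with a median of 10534 UMIs and 2052 genes per cell, and the SCD cells 27960104, with medians of 9646 and 1919. S100a8 and S100a9 UMIs ranged from 9.48 to 44.7% of a cell in the wild-type and from 2.98 to 50.7% in the SCD library, so no cell stood near the 1% limit. The limit on granule UMIs cut through a continuum. With 5 to under 6% there were 29 wild-type and 201 SCD cells just inside, and with 4 to under 5% there were 16 and 195 just outside. At the division limit, 2 wild-type and 34 SCD cells had 4 such UMIs and 2 and 35 had 5, while 332 of 397 and 1826 of 2777 had none. The azurophil limit kept out no wild-type and 1 SCD cell. Called doublets made up 4.53% and 3.28% of the cells and were kept. The libraries shared 88 barcodes, none of them chosen in both.

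Immature non-dividing neutrophils were 4.21% of the kept wild-type cells (interval 3.82 to 4.64%) and 26.1% of the kept SCD cells (25.3 to 27.0%), a ratio of shares of 6.20 (5.58 to 6.90). For comparison, 3 neighbouring classes were cut from the same genes. Dividing immature neutrophils, with more than 4 division UMIs and otherwise the same rule, were 77 wild-type cells (0.817%) and 761 SCD cells (7.15%), a ratio of 8.76 (6.92 to 11.2). Transitional neutrophils, with 0.5 to under 5% granule UMIs, were 130 (1.38%) and 1143 (10.7%), a ratio of 7.79 (6.49 to 9.41). Mature neutrophils, with under 0.5%, were 3987 (42.3%) and 2731 (25.7%), a ratio of 0.607 (0.578 to 0.637). The shares of all 3 immature and intermediate classes were thus higher in the SCD library and that of mature cells lower. Among cells with at least 1% S100a8 and S100a9 UMIs alone, the immature non-dividing share was 8.60% among 4617 wild-type and 36.4% among 7631 SCD cells, a ratio of 4.23 (3.81 to 4.71). There were 5.16 immature non-dividing cells for each dividing one in the wild-type library and 3.65 in the SCD library, and 0.0996 and 1.02 for each mature one. The bead depletion acted on these shares to an extent that was not tested, and they are not shares of the spleen.

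**Figure D1:**
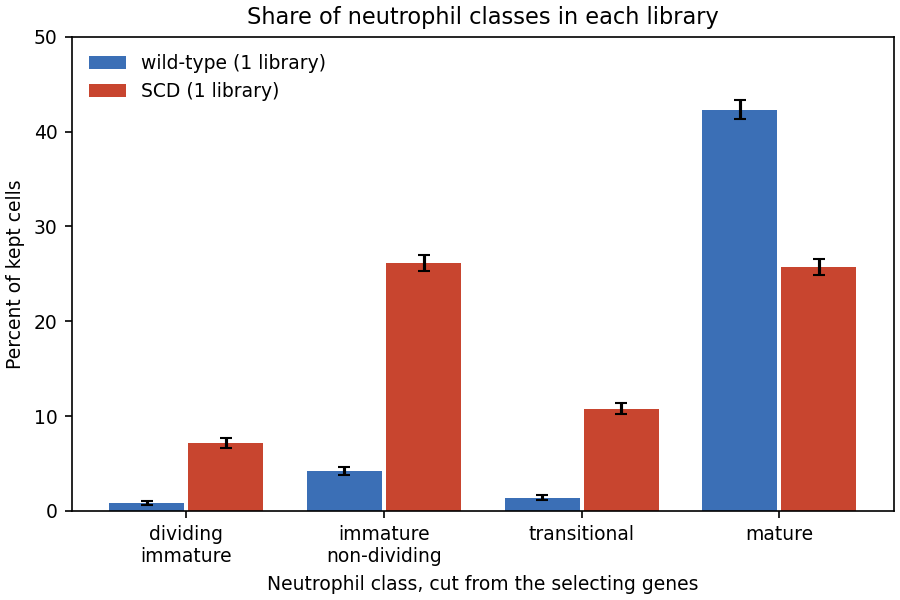
Percent of kept cells (vertical axis) in 4 neutrophil classes for each library (wild-type or SCD, 1 animal each); bars are shares and error bars exact 95% Clopper-Pearson intervals for counting error. Immature non-dividing cells are at 4.21% and 26.1%, and only the mature class is larger in the wild-type library.

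Levels below are UMIs summed over the cells of a class and library and scaled by that class's total, so that 1 CPM is 1 UMI in 1000000. Each transcript molecule is counted at its 3′ end, so values were not divided by gene length, and comparisons are made between classes or libraries and not between genes. The 10 genes with the highest mean CPM of both libraries outside the selecting, mitochondrial and ribosomal genes were Tmsb4x, Lcn2, Actb, Lyz2, Wfdc21, Retnlg, Chil3, Anxa1, Arhgdib and Pglyrp1. With their levels in the wild-type and then the SCD library, the granule proteins among them were Lcn2 (18048 and 16975 CPM), lysozyme Lyz2 (13821 and 12595 CPM) and the peptidoglycan-binding Pglyrp1 (3828 and 3339 CPM). Chil3, the chitinase-like protein Ym1, was at 5416 and 4575 CPM. Anxa1, annexin A1, was at 4026 and 4272 CPM, against 786 and 950 CPM in mature cells. The selecting genes Camp, Ngp and Ltf were at 49673, 39449 and 15682 CPM in wild-type cells and at 44852, 40507 and 14045 CPM in SCD cells.

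Among 1917 expressed genes (those that reached 50 CPM and 20 UMIs in 1 library or both), 90 were at least 2-fold higher and 172 at least 2-fold lower in these cells than in transitional and mature neutrophils together, in both libraries. As the classes were cut from measured genes, these are descriptions. By the smaller of both libraries' ratios, the 10 genes highest over the later classes were Orm1, Fcnb, Chil3, Zmpste24, Tmem216, Lta4h, Inhba, Olr1, Lmo1 and Cebpe. Cebpe was at 461 CPM (wild-type) and 443 CPM (SCD), between 687 and 683 CPM in dividing and 124 and 131 CPM in transitional cells, and was at 32.1 and 36.6 CPM in mature ones. Lta4h, leukotriene A4 hydrolase, which makes leukotriene B4, was at 439 and 400 CPM against 31.5 and 25.3 CPM in mature cells. Inhba, the activin A subunit, was at 162 and 124 CPM against 1.56 and 2.74 CPM. Zmpste24, a zinc metalloprotease that processes prelamin A, was at 398 and 431 CPM against 14.9 and 14.7 CPM.

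For several genes of either side the cells lay between the dividing and the transitional class. Others were higher here than in both. Lcn2 was at 14128 and 15888 CPM in dividing and 8608 and 8392 CPM in transitional cells, below its level here in both libraries. Anxa1 was likewise lower in both, at 2530 and 3154 CPM and at 1884 and 2288 CPM. Fcnb, the lectin ficolin B, was at 1012 and 915 CPM in dividing cells and at 174 and 168 CPM in the immature non-dividing cells (wild-type and SCD). It was at 0 and 4.57 CPM in transitional cells and at 0.656 and 5.28 CPM in mature cells. Chil3 followed the same order, at 11938 and 9571, 5416 and 4575, 472 and 610, and 53.7 and 148 CPM. Mmp8, neutrophil collagenase, ran the other way at 74.6 and 106 CPM in dividing and 2319 and 2193 CPM in immature non-dividing cells, reached 3962 and 4140 CPM in transitional cells, and was lower again in mature ones (442 and 1745 CPM). Retnlg, a resistin-like secreted protein, was at 157 and 596 CPM in dividing, 5664 and 5297 CPM in immature non-dividing, and 35013 and 33376 CPM in transitional cells. Cxcr2, the receptor for neutrophil chemokines, was at 117 and 89.3, then 327 and 254, then 849 and 664, and finally 1988 and 1337 CPM. Csf3r, the G-CSF receptor, was at 190 and 139 CPM here and at 2669 and 1501 CPM in mature cells.

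**Figure D2:**
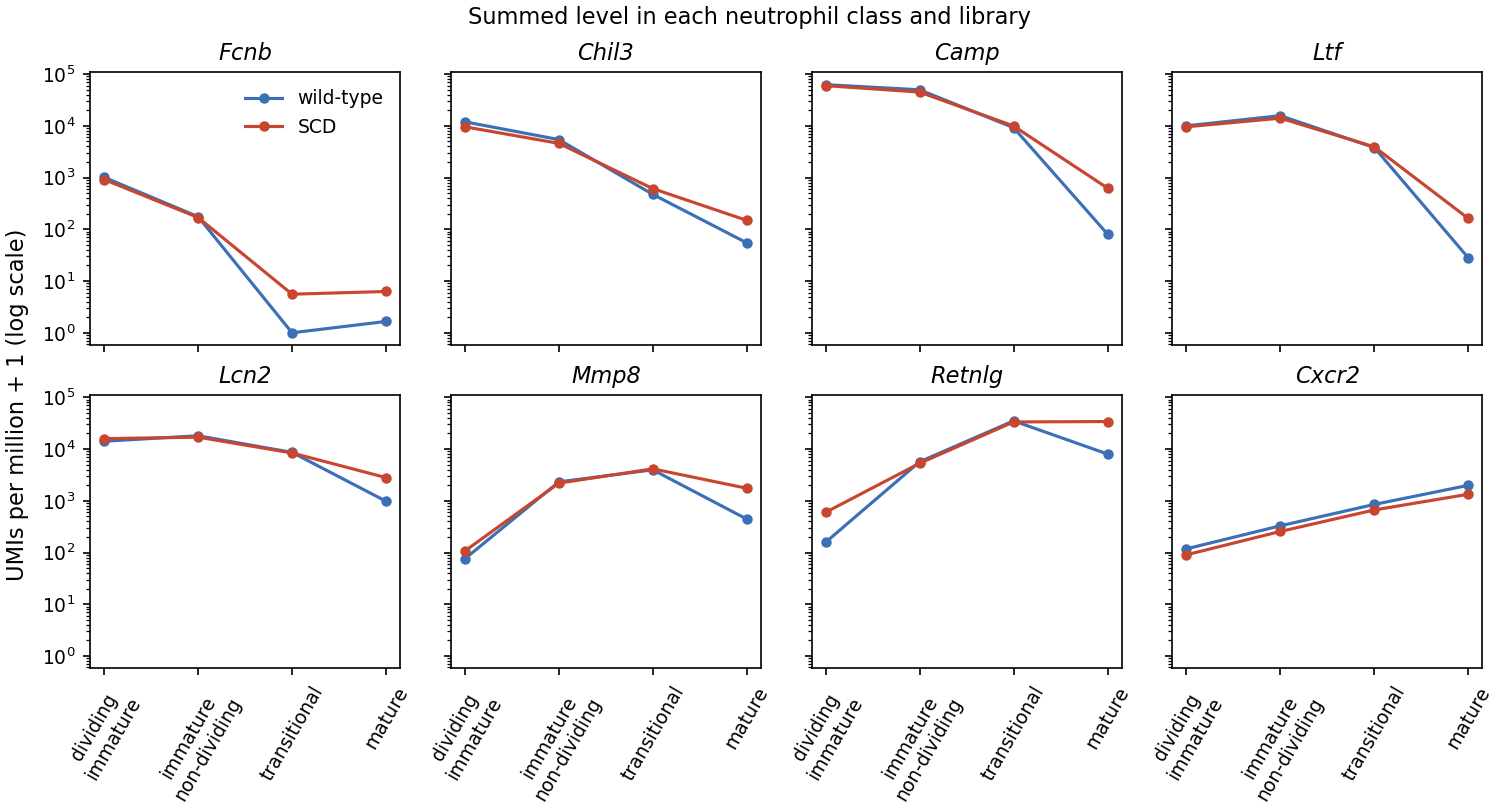
Summed level of 8 genes (vertical axis, CPM plus 1, log scale) in 4 neutrophil classes (horizontal axis) of either library, 1 point per class and library. The libraries lie close together in immature non-dividing cells and apart in mature cells for Lcn2, Mmp8 and Retnlg, while Camp and Ltf are bounded by the selection in every class.

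The immature non-dividing cells were themselves graded. Split by their Camp, Ngp and Ltf share, 178 wild-type cells (44.8%) and 1449 SCD cells (52.2%) had 5 to under 10%, 207 and 1316 had 10 to under 15%, 12 and 12 had 15 to under 20%, and none had 20% or more. From the lower to the middle band, Chil3 went from 3442 to 6625 CPM in the wild-type and from 3025 to 5958 CPM in the SCD library. Fcnb went from 52.4 to 255 CPM and from 42.9 to 280 CPM, and Orm1 from 104 to 314 CPM and from 86.9 to 282 CPM. In the other direction, Retnlg went from 10922 to 1968 CPM and from 9327 to 1689 CPM, Mmp8 from 3442 to 1606 CPM and from 3249 to 1253 CPM, and Cxcr2 from 457 to 236 CPM and from 336 to 182 CPM. The summed late neutrophil list of 18 genes was at 21210 and 18601 CPM in the lower band and at 7924 and 6543 CPM in the middle band. The direction was the same in both libraries for each of these genes.

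Single cells showed this grading too. Each cell was thinned to 1000 UMIs so that depth did not set the result, which left 396 wild-type and 2773 SCD cells. Fcnb was then found in 8.33% and 9.92% of the cells and Mmp8 in 66.7% and 66.0%. Of the cells with Fcnb, 6.06% in the wild-type and 22.5% in the SCD library also had Mmp8, against 72.2% and 70.8% of the cells without Fcnb. Of the cells with Mmp8, 83.0% and 83.2% also had Retnlg, against 28.0% and 35.1% of those without. In cells with under 1% S100a8 and S100a9 UMIs, thinned alike, Mmp8 was found in 1.85% and 6.88% and Retnlg in 3.56% and 12.8%, a background level that was higher in the SCD library and whose source was not tested. Fcnb was found in 0.0639% and 1.10% of those cells. Fcnb and Mmp8 thus marked largely separate cells of the same class, and Mmp8 and Retnlg largely shared ones.

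The spread of the selecting granule transcripts is bounded by the rule and is given as a description. Per cell, Camp had a median of 4.74% of UMIs in the wild-type library, with quartiles of 3.51 and 5.91%, and of 4.24% in the SCD library, with quartiles of 3.17 and 5.31%. Ngp had medians of 3.90% and 4.02% and Ltf of 1.58% and 1.40%. Retnlg was broad, with a median of 0.175% and a highest decile starting at 2.06% in the wild-type library, and 0.185% and 1.73% in the SCD library. Thinned to 1000 UMIs, the cells showed a median of 383 and 373 genes, fewer than dividing (430 and 403), transitional (416 and 395) and mature cells (538 and 446). The 10 genes with the highest level in each library, selecting genes included, took 51.3% and 53.1% of the UMIs of these cells.

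Genes of the neutrophil effector systems were present before maturity. Cybb, the catalytic gp91phox subunit of the NADPH oxidase that makes superoxide, was at 2681 and 2547 CPM, above dividing (1764 and 1821 CPM) and mature cells (256 and 345 CPM). Its partner Cyba was at 1751 and 1576 CPM, and the cytosolic subunits Ncf1 and Ncf4 at 1008 and 974 CPM and at 339 and 363 CPM. All 8 oxidase genes of the list were expressed. Padi4, which citrullinates histones, was at 236 and 278 CPM, Alox5 (5-lipoxygenase) at 146 and 153 CPM and Alox5ap, its activating protein, at 1078 and 1006 CPM. Of the regulators, Spi1 (PU.1) was at 416 and 468 CPM, Cebpd at 314 and 285 CPM and Gfi1, a repressor of earlier precursors, at 13.3 and 11.1 CPM against 39.3 and 32.2 CPM in dividing cells. Cxcr4, the receptor that retains neutrophils at sites of production, was at 244 and 204 CPM, below its level in mature cells (659 and 263 CPM).

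Division genes outside the rule were low. The summed replication list of 17 genes was at 60.7 CPM (wild-type) and 108 CPM (SCD), against 1489 and 1216 CPM in dividing cells, and 15 further mitosis genes at 78.4 and 111 CPM against 2801 and 2526 CPM. Mcm5, a replicative helicase subunit, was found in 0.505% and 0.938% of the thinned immature non-dividing cells and in 3.90% and 6.57% of the dividing ones. Hmgn2, a chromatin protein abundant in cycling cells, was at 659 and 587 CPM, against 2321 and 2125 CPM in dividing and 254 and 307 CPM in mature cells. Both division lists had sums above the wild-type level in the SCD cells, with ratios of 1.77 (1.56 to 2.02) and 1.42 (1.27 to 1.59). In cells with under 1% S100a8 and S100a9 UMIs the sums also differed, at 475 and 1114 CPM for replication and 350 and 1314 CPM for mitosis. Those cells may transcribe these genes themselves, and what part they had in the difference was not tested.

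Between the libraries, the transcripts of immature non-dividing neutrophils were close. The log2 ratio of SCD over wild-type, with 5 CPM added to both, had a median of -0.08 over the 1917 expressed genes. It lay within 0.25 of 0 in 82.2% of them and within 0.5 in 97.6%, and Pearson's r of log2 levels across genes, which are not independent replicates, was 0.98. Past 2-fold, 1 gene was higher (0.0522% of the expressed genes) and 8 were lower (0.417%). By the same measure, 3 of 2105 genes were higher (0.143%) and 4 lower (0.19%) in dividing cells. In transitional cells 5 of 2260 were higher (0.221%) and 48 lower (2.12%), and in mature cells 56 of 2694 were higher (2.08%) and 173 lower (6.42%), with a median of -0.38. The libraries were thus further apart in the later classes. Called doublets were most frequent in the transitional class. They were 4.53% and 3.28% of immature non-dividing, 16.2% and 5.69% of transitional and 5.44% and 1.61% of mature cells. DC markers summed to 632 and 294 CPM in immature non-dividing cells. They summed to 4837 and 1038 CPM in transitional and 5643 and 1789 CPM in mature cells. What part any of these values had was not tested. The difference between classes was not tested.

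**Figure D3:**
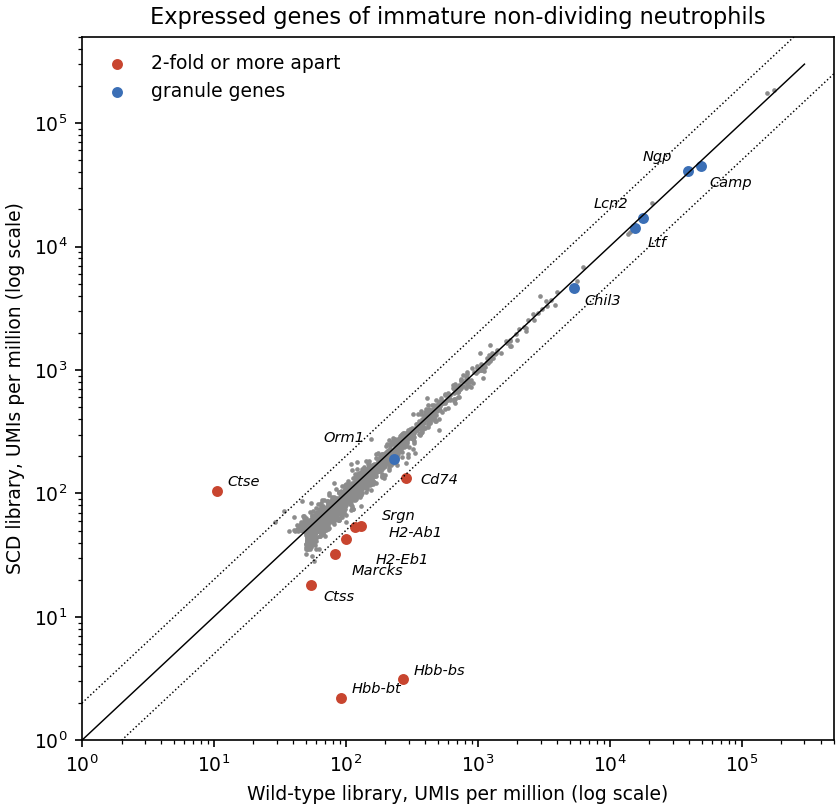
Level of each of 1917 expressed genes in immature non-dividing neutrophils of the wild-type library (horizontal axis) and the SCD library (vertical axis), in CPM on log scales; the solid line marks equal levels and the dotted lines a 2-fold difference. By the ratio with 5 CPM added, Ctse was past 2-fold on the higher side and 8 genes on the lower. Without the added 5 CPM, genes such as Lmo1, Gm8797 and Gm2a are past 2-fold as well. The granule genes Camp, Ngp, Ltf, Lcn2, Orm1 and Chil3 lie near the line of equal levels.

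Ctse, the aspartic protease cathepsin E (chr1:131638306-131675505, plus strand), was the gene past 2-fold on the higher side. It had 46 UMIs in the wild-type cells (10.5 CPM) and 2950 in the SCD cells (106 CPM), a log2 ratio of 2.83 and a ratio of CPM between 7.49 and 13.7 by counting error. It was found in 10.1% (wild-type) and 61.9% (SCD) of the cells, at most 2 and 11 UMIs in any cell, so it was spread over many cells. The same direction was seen in dividing (log2 ratio 3.44), transitional (2.06) and mature cells (2.87). In cells with under 1% S100a8 and S100a9 UMIs it was found in 2.56% and 42.4%. The difference in Ctse was therefore not particular to immature neutrophils, and the part of free RNA in it was not tested.

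Just below 2-fold on the higher side was Lmo1, a LIM-only transcriptional cofactor, at 33.9 and 72.2 CPM (log2 ratio 0.99), one of the 10 genes highest over later neutrophils. It was at 35.3 and 63.3 CPM in dividing cells and at 11.5 and 31.7 CPM in cells with under 1% S100a8 and S100a9 UMIs, so its direction was the same there. Npm1, the nucleolar protein nucleophosmin, was at 46.3 and 86.3 CPM (0.83), and Ptma, prothymosin alpha, at 122 and 180 CPM (0.54). Ptma was at 166 and 172 CPM in the 5 to under 10% granule band and at 85.3 and 187 CPM in the 10 to under 15% band. In dividing cells Ptma was at 2193 and 1929 CPM and Npm1 at 129 and 143 CPM, and Npm1 was at 158 and 194 CPM in mature cells. In cells with under 1% S100a8 and S100a9 UMIs, Npm1 was at 622 and 790 CPM and Ptma at 1726 and 2851 CPM. Those cells may transcribe both genes themselves, and what part they had in the differences was not tested. Acvrl1, the BMP receptor ALK1, was at 112 and 155 CPM (0.45), against 124 and 166 CPM in transitional, 4.62 and 20.9 CPM in dividing and 6.57 and 37.9 CPM in mature cells. Further genes on this side by their rank were Gm8797, CT010467.1, Zmat2, Vill, Cox6c and Hjurp, with log2 ratios from 0.44 to 0.91.

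On the lower side, Hbb-bs and Hbb-bt, the adult mouse beta globins, had the largest differences, at 272 and 3.11 CPM and at 92.8 and 2.22 CPM. A single wild-type cell held 89.7% of the Hbb-bs and 91.4% of the Hbb-bt UMIs of all 397. Without it Hbb-bs was at 28.0 CPM and Hbb-bt at 8.03 CPM, both under the limit of 50 CPM. In the SCD library 1 cell held 52.9% of the Hbb-bs UMIs. Hbb-bs had log2 ratios of -1.81 in dividing, -2.38 in transitional and -5.39 in mature cells. Hbb-bt was near equal in dividing (-0.12, 18 and 137 UMIs) and transitional cells (-0.26, 7 and 39 UMIs), and at -4.24 in mature cells. By the genotypes in the labels, the Hbb locus is disrupted on 1 allele in the wild-type mouse and on both in the SCD mouse. Hba-a1, at a locus where the labels give both mice the same allele, went the other way, at 81.3 and 121 CPM (log2 ratio 0.55), with UMIs in 9.07% and 32.7% of the cells. The source of the Hba-a1 UMIs was not tested. Near the Hbb locus, Trim12a (chr7:104299894-104315466, 472 kb from Hbb-bs) was at 49.9 and 1.57 CPM, with UMIs in 37.0% (wild-type) and 1.55% (SCD) of the cells. It missed the limit of 50 CPM and was named after its values were seen, and its reads may be hard to separate from those of the related Trim12c (98.3 and 93.4 CPM).

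The other 6 genes were Srgn, Marcks, Ctss, Cd74, H2-Ab1 and H2-Eb1. Srgn, the granule proteoglycan serglycin, was at 131 and 54.3 CPM (log2 ratio -1.19), and Marcks, a membrane-cytoskeleton protein, at 82.5 and 32.2 CPM (-1.24). Both are genes of the mature class, where Srgn was at 4384 and 2222 CPM and Marcks at 1823 and 830 CPM. Of the 12 genes lowest by rank outside globin and other cell types' markers, 11 had a higher level in mature than in immature non-dividing cells in both libraries, the exception being Thbs1. The same held for 7 of the 12 genes highest by rank and for 1137 of all 1917 expressed genes (59.3%). The lowest 12 included Gm2a (57.7 and 28.5 CPM), Itga4, an integrin chain (63.0 and 35.5 CPM), Cd300a (55.7 and 31.3 CPM), Ccl6 (100.8 and 59.0 CPM), Txnip (130 and 78.8 CPM) and Fxyd5 (289 and 178 CPM). In cells with under 1% S100a8 and S100a9 UMIs, Ctss, Gm2a and Itga4 were above their mature level in both libraries. Wild-type values there were 1072, 1034 and 650 CPM, against 269, 751 and 534 CPM in mature cells. Srgn, Marcks, Cd300a, Ccl6, Txnip and Fxyd5 were below their mature level in those cells. At a like granule share Srgn was at 234 and 88.2 CPM in the 5 to under 10% band and at 59.1 and 23.8 CPM in the 10 to under 15% band (log2 ratios -1.36 and -1.15). Marcks was at 150 and 45.2 CPM and at 34.2 and 20.5 CPM (-1.63 and -0.62), a smaller difference in the middle band. The differences in Ctss, Gm2a and Itga4 lay mainly in the lower band. In the middle band Ctss was at 5.91 and 6.44 CPM, Gm2a at 18.6 and 16.7 CPM and Itga4 at 32.9 and 31.3 CPM, against 123 and 31.4, 113 and 41.8, and 104 and 39.9 CPM in the lower band. Thbs1, the matrix glycoprotein thrombospondin 1, was at 337 and 212 CPM (-0.66) in the immature non-dividing cells and at 398 and 117 CPM in transitional ones.

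Cd74, H2-Ab1 and H2-Eb1 belong to the MHC class II machinery of antigen-presenting cells and are themselves in the list of 9 DC markers. The list summed to 632 CPM (wild-type) and 294 CPM (SCD), none was at 0, and these 3 genes took most of the sum. The DC markers outside class II were few, with Flt3 at 3.67 and 1.93 CPM, Zbtb46 at 1.60 and 0.823 CPM, Clec9a at 0.916 and 1.82 CPM and Xcr1 at 0.687 and 1.72 CPM. In cells with under 1% S100a8 and S100a9 UMIs the 9 summed to 27504 and 10239 CPM. The highest share in any immature neutrophil was 3.07% and 3.09%. Cd74 was at 287 and 134 CPM, and 5 cells held 54.2% of its wild-type UMIs and 5 held 32.2% in the SCD library. Without cells that were called doublets or had at least 0.1% of UMIs from DC, B cell, erythroid or red pulp macrophage markers, 361 wild-type and 2635 SCD cells were left, 2 expressed genes were higher (Ctse and Npm1) and 2 lower (Srgn and Trim12a, then at 51.4 and 1.57 CPM) past 2-fold, and Cd74 was at 62.5 and 32.3 CPM. Beyond doublets, the removed cells were chosen by markers that include Cd74, H2-Ab1, H2-Eb1 and the globins. The fall of those genes is partly set by this choice. Differences of genes named above were smaller without these cells, with Itga4 at 35.0 and 30.2 CPM (log2 ratio -0.18), Gm2a at 24.4 and 19.0 CPM (-0.29), Ctss at 12.9 and 7.45 CPM (-0.52) and Marcks at 43.0 and 19.6 CPM (-0.96), while Srgn was at 82.8 and 31.8 CPM (-1.25). The part of free RNA in the class II transcripts was not tested.

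Markers of other blood cells were low, with exceptions. The 9 erythroid markers summed to 457 and 156 CPM, with at most 25.1% of a wild-type and 15.9% of an SCD cell, and none was at 0. Most of the SCD sum was Hba-a1 (121 of 156 CPM) and most of the wild-type sum Hbb-bs (272 of 457 CPM). Without called doublets and cells bearing other types' markers, Hba-a1 was at 9.52 and 41.4 CPM (log2 ratio 1.68). B cell markers summed to 3.21 and 14.99 CPM with 5 of 8 at 0 in the wild-type cells and none in the SCD cells, red pulp macrophage markers to 30.9 and 20.3 CPM and plasmacytoid DC markers to 33.7 and 50.4 CPM, none at 0. Megakaryocyte markers (2.06 and 1.75 CPM, 2 and 1 of 4 at 0) and eosinophil and basophil markers (4.58 and 4.22 CPM, 5 and 1 of 7 at 0) were near absent. Of 6 T and NK cell markers, Cd3d was at 433 and 373 CPM, with UMIs in 94.2% and 91.9% of the cells, while 5 and 3 of the 6 were at 0. In cells with under 1% S100a8 and S100a9 UMIs, Cd3d was at 4.93 and 3.26 CPM, so here it followed neutrophils. Of the 9 monocyte markers, which summed to 1340 and 1205 CPM, Ly6c2 took 1197 and 1141 CPM.

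The azurophil genes of the rule had more UMIs in the SCD cells, 2088 against 38, or 74.7 against 8.71 CPM. Prtn3, proteinase 3, was found in 21.8% of the SCD cells at a median depth of 9646 UMIs, but in 45.7% of the SCD cells with under 1% S100a8 and S100a9 UMIs at a median of 10497. The latter cells may transcribe Prtn3 themselves, with 315 CPM against 27.4 CPM in the immature non-dividing SCD cells. Whether the immature non-dividing cells express it was not tested. Camp itself had UMIs in 26.9% of such wild-type and 92.8% of such SCD cells. Thinned to 1000 UMIs it was found in 3.73% and 27.8% of them and in 7.15% and 45.7% of mature neutrophils. Detection of Camp outside neutrophils thus differed between the libraries. For Lcn2 mature cells stood further above the cells with under 1% S100a8 and S100a9 UMIs, at 978 and 2802 CPM against 21.7 and 130 CPM. In the immature non-dividing cells the level of Camp was set by the rule.

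Described by list, no expressed gene of any pathway list passed 2-fold in these cells. Of all 1917 expressed genes, only 0.0522% were higher and 0.417% lower, so this is not a finding about the lists. The median log2 ratio of the 13 specific granule genes was -0.13, with a range of named members from -0.29 for Itgam, an integrin chain stored in granules, to 0.32 for Olfm4. Of 18 late neutrophil genes, 14 were expressed, with a median of -0.18. The medians were -0.12 for 8 transcription factors, -0.17 for 14 adhesion and traffic genes, -0.05 for 8 NADPH oxidase genes, -0.13 for 11 genes of the secretory pathway, -0.02 for 13 glycolysis genes and 0.00 for 11 respiratory chain genes. All of these stand beside a median of -0.08 for all expressed genes. The highest was 0.20, for 6 growth and translation genes, Npm1 and Ptma among them, and it ran from 0.16 to 0.40 over the alternative settings. The 3 expressed genes of the S100 family list, which leaves out S100a8 and S100a9, had a median of 0.14. S100a6, among them, was at 2955 and 3949.5 CPM (log2 ratio 0.42).

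Because hemolysis in SCD releases heme, heme and antioxidant genes were listed. Hmox1, heme oxygenase 1, which degrades heme, was at 18.8 CPM (wild-type) and 14.6 CPM (SCD), below the 50 CPM limit. The ferritin chains Fth1 and Ftl1 were at 1048 and 1006 CPM and at 1283 and 1379 CPM, and the iron exporter Slc40a1 at 142 and 117 CPM. The 5 expressed genes of the heme and iron list of 19 had a median of -0.13. Of 16 NRF2 and antioxidant genes, 6 were expressed, with a median of 0.01. Nqo1, a classical NRF2 target, was at 0.916 and 2.40 CPM, and Gclm, a subunit of the enzyme for glutathione synthesis, at 40.1 and 48.1 CPM. Of 27 interferon response genes, 5 were expressed, Ifitm2 and Ifitm3 among them, with a median of -0.29. This median ran from -0.35 to -0.15 over the alternative settings. Ifitm3 was at 1231 and 1179 CPM, and Isg15, a ubiquitin-like interferon product, at 26.6 and 15.8 CPM.

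Several of the lists were further from 0 in mature cells, while the growth and translation median was 0.00 and that of the heme and iron list -0.14 there. The specific granule median was 0.57 there, that of transcription factors -0.84, and that of immediate early genes -1.05 against -0.19 in immature non-dividing cells. Summed, the 14 immediate early genes, which respond within minutes to handling or stimulation, were at 842 and 665 CPM in the immature non-dividing cells and at 6695 and 2351 CPM in mature cells. The summed late neutrophil list was at 13314 and 12233 CPM in the immature non-dividing and at 30656 and 51800 CPM in the mature cells. Retnlg alone was at 8004 and 33995 CPM in mature cells, and the median log2 ratio of the 18 genes was -0.39 there, lower in SCD. The difference between the classes was not tested.

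**Figure D4:**
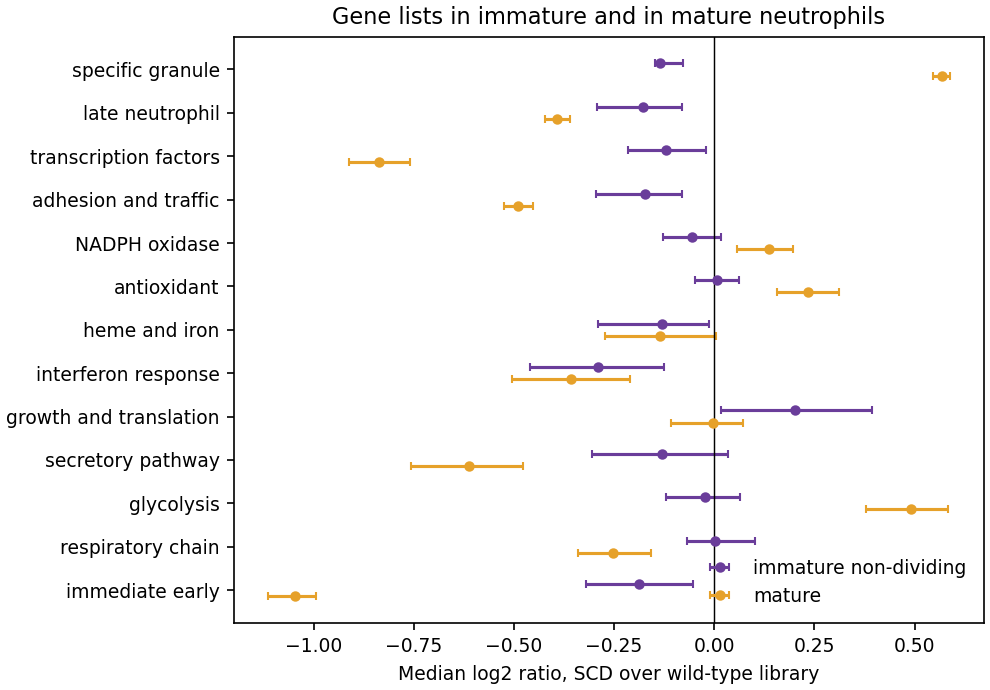
Median log2 ratio of SCD over wild-type (horizontal axis) over the expressed genes of 13 lists (vertical axis) in immature non-dividing and in mature neutrophils; points are medians and bars the medians of the genes' 95% counting intervals. In immature non-dividing cells the medians lie between -0.29 and 0.20, and in mature cells between -1.05 and 0.57.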

How the data were processed

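The authors processed the reads to UMI counts per gene and cell. The submitters' processing notes name Cell Ranger 4.0.0 and the build GRCm38.p6. The deposited values were raw UMI counts without normalization, for 10845 wild-type and 13447 SCD barcodes with 97880318 and 189688217 UMIs. Cells were filtered, selected by the rule and assigned to classes in Python 3.11.15 with pandas 2.3.3, scipy 1.17.1 and numpy 2.4.6. The sample labels gave the groups, each of 1 sample. UMIs were summed per class and library and scaled to a total of 1000000 (CPM), and log2 ratios used a pseudocount of 5 CPM. Shares were given exact Clopper-Pearson intervals and ratios of counts exact conditional binomial intervals, all at 95%. Doublets were called with Scrublet in scanpy 1.11.5 (genes in at least 20 cells, expected rate of 8%), a setting chosen after the default had called none in the SCD library. The summing and comparison were tested on simulated data. A symbol given to more than 1 identifier was read from its first row.

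Members and lists were chosen with earlier results of these data known. Named genes were the selecting and marker genes, the 10 with the highest mean CPM, the 10 with the largest ratio of members over later neutrophils in both libraries, the 12 highest and 12 lowest by log2 ratio, and genes of the pathway lists. Some of the genes that this rule names are not reported here. Mitochondrial, ribosomal, immunoglobulin, T cell receptor, globin, sex-linked and selecting genes were left out of the ranked groups, and other cell types' markers out of the ranking between libraries. Alternatives changed the filters, the rule's limits, the pseudocount, the scaling and the minimum level. Figures were drawn with matplotlib 3.10.9.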

Additional observations from a re-analysis of the deposited data

Results flagged for a closer look

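Among SCD cells with under 500 detected genes, which the filter left out, 15 of 609 (2.46%, interval 1.38 to 4.03%) met the rest of the rule for immature non-dividing neutrophils, against 1 of 496 (0.202%, 0.00510 to 1.12%) in the wild-type library. The direction was that of the kept cells, and both shares were below theirs (4.21% wild-type and 26.1% SCD). No comparison above used these cells.

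The median log2 ratio of the 10 expressed specific granule genes was 0.57 in mature neutrophils and -0.13, over 13 genes, in immature non-dividing cells, with counting intervals on opposite sides of 0. The median of 4 expressed interferon response genes was 0.18 in dividing immature cells against -0.29, over 5 genes, in the immature non-dividing cells. Neither difference between classes was tested, and the expressed genes are not the same in each class. Mature cells also differed in their median Camp, Ngp and Ltf share, at 0% in the wild-type and 0.143% in the SCD library.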

How the results depend on the processing

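No paired analysis was possible because the design has 1 mouse per genotype. No setting turned the direction of the share, which ranged from 2.32 to 8.60% (wild-type) and from 12.5 to 36.4% (SCD), with ratios of 4.23 to 6.47. The wild-type and SCD shares were 5.69 and 29.6% (ratio 5.20) with at least 1000 genes per cell, 2.32 and 12.5% (5.37) with at least 10% granule UMIs, 3.52 and 17.2% (4.87) with no division UMI, and 8.60 and 36.4% (4.23) among S100a8 and S100a9 cells. The SCD share alone moved beyond its interval to 23.4% with no upper limit on genes, 24.4% with no mitochondrial and ribosomal filter, 29.7% with at least 3% granule UMIs, 27.7% with division UMIs at most 0.1%, 28.7% with the rule on 1000 UMIs per cell, and 24.8% without other cell types' transcripts.

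Counts of genes past 2-fold, 1 higher and 8 lower, were small and moved easily. They were 18 and 46 with at least 10 CPM, 10 and 20 when scaled to the total without the selecting genes, and 4 and 1 with at least 10% granule UMIs. The higher count was 2 with no division UMI, division UMIs at most 0.1%, the rule on 1000 UMIs, a pseudocount of 1, median-of-ratios scaling, or SCD cells weighted to the wild-type granule shares. The lower count was 5 without called doublets, 14 with at least 3% granule UMIs and 3 with a pseudocount of 20. Both were 2 without other cell types' transcripts, an alternative chosen after seeing the data. The causes were not tested. Median-of-ratios scaling moved the specific granule median to -0.051 and the antioxidant median to 0.090, scaling without the selecting genes moved the latter to 0.10, and a minimum of 10 CPM moved the late neutrophil median to -0.32. Over all 17 lists 7 of 289 medians moved beyond their intervals, among them growth and translation to 0.40 with at least 10 CPM and NADPH oxidase to 0.03 with median-of-ratios scaling. Medians near 0, those of the oxidase, antioxidant, glycolysis, respiratory chain, heat shock and lipid mediator lists, changed sign under some settings. The median of all expressed genes went from -0.079 to 0.0037 with median-of-ratios scaling. Of 714 values of 42 named genes, 609 stayed within their intervals, and 12 changed sign. Of the genes past 2-fold, Ctss turned to 0.12 with at least 10% granule UMIs. The other 11 were of 5 genes under 2-fold, Fcnb (-0.05, up to 0.11), Retnlg (-0.10, to 0.06 with at least 3% granule UMIs), Arhgdib, Olr1 and Cebpe. Ctse ranged from 2.04 to 3.21. Depth limits genes under 50 CPM most, since the wild-type cells held 4364914 UMIs.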
